A study of Mus musculus with 2 samples.

Results

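Cycling macrophages of injured mouse muscle were the cells examined here, taken from single-cell RNA-seq of the tibialis anterior 4 days after an injection of 50 µl of 10 µM cardiotoxin, a snake venom toxin that kills muscle fibres. The design text sets 2 mouse strains side by side, with 1 library each. The Wt library came from C57BL/6 mice. The Gata3KO library came from C57BL/6:Cx3cr1CRExGata3fl/fl mice, in which Cre is expressed from *Cx3cr1*, a chemokine receptor gene of monocytes and macrophages, and both *Gata3* alleles are floxed, so that deletion depends on a cell's own or an earlier *Cx3cr1* expression. Cells of both libraries were injured in the same way and sorted as live (Zombie aqua-), Ly6G-, CD45+ and CD11b+, a gate that keeps monocytes, macrophages and some dendritic cells and removes neutrophils. The number of mice behind each library is not given in the sources used here. With 1 library per strain there is no replicate check: every interval below is a 95% interval that covers counting error only, and no p-value was computed.

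A barcode (1 droplet, taken as 1 cell) was counted as a cycling macrophage when mitochondrial genes made up at most 20% of its unique molecular identifiers (UMIs, each a captured RNA molecule), when *Mki67*, *Top2a*, *Cdk1*, *Birc5* and *Ube2c* together had 4 or more UMIs, and when *C1qa*, *C1qb* and *C1qc* together had 1 or more. Barcodes with more than 1 UMI of *Cd209a*, more than 2 of *Ccr7* and *Fscn1*, or more than 4 of the collagen genes *Col1a1*, *Col3a1* and *Col1a2* were left out, since these mark dendritic cells and fibroblasts. The rule kept 89 of 3290 Wt barcodes and 84 of 3434 Gata3KO barcodes, 173 of 6724 in all. The 2 libraries shared 2 barcodes, and none of these was a cycling macrophage. Because the cells were chosen by their cell-cycle and C1q transcripts, the levels of those transcripts describe the choice and are not findings.

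A dividing cell copies its DNA in S phase, which calls for the MCM helicase, DNA polymerases, deoxynucleotides and new histones. It then condenses and separates its chromosomes in G2 and M phase, with cyclin B and its kinase, condensins, kinetochore proteins and a spindle of microtubules and motor proteins. In injured muscle, blood monocytes enter the tissue, mature into macrophages that clear dead fibres, and part of these macrophages enter the cell cycle.

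Genes of G2 and M phase are switched on together through their promoters, in which a CCAAT box is bound by the factor NF-Y and a short element named CHR (cell-cycle genes homology region) by the DREAM and MuvB complexes, while E2F sites are common upstream of S phase genes. The 150 bases ahead of the annotated transcription start are printed here for the 5 selecting genes, so that the shared elements can be seen, and for *Hmmr* and *Ccnb2*, which had the largest difference from the non-cycling macrophages among the other genes at 100 CPM or more in 1 cell group of each library. The sequences come from the RefSeq promoter table of GRCm38.p6 and run 5′ to 3′ along the gene's strand. Capitals mark a CCAAT box (CCAAT), a CHR (TTTGAA or TTCGAA) or an E2F site (TTTCCCGC, TTTGGCGC or TTTCGCGC) on either strand, so that ATTGG is a CCAAT box read from the other strand. TTCGAA is its own reverse complement and was counted once per promoter.
*Mki67*, chr7:135716380-135716529, minus strand: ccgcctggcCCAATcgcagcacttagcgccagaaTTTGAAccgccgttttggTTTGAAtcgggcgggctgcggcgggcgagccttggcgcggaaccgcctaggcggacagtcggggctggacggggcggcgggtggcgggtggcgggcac
*Top2a*, chr11:99024190-99024339, minus strand: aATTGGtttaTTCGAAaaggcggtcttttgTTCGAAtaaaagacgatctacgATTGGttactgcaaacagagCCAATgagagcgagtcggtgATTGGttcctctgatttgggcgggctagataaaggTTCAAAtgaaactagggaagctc
*Cdk1*, chr10:69352913-69353062, minus strand: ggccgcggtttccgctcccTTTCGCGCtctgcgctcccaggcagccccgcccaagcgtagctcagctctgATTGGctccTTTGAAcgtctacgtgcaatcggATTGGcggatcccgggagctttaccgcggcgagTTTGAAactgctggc
*Ube2c*, chr2:164769779-164769928, plus strand: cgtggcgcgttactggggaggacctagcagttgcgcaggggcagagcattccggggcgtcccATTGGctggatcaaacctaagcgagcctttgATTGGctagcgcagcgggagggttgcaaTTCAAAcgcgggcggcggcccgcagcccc
*Birc5*, chr11:117849087-117849236, plus strand: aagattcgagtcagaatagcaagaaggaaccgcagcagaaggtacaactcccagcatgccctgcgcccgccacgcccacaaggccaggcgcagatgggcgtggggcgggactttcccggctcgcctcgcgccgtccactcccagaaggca
*Hmmr*, chr11:40733438-40733587, minus strand: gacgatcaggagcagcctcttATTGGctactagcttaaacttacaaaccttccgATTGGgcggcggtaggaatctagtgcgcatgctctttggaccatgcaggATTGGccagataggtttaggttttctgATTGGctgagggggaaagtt
*Ccnb2*, chr9:70421555-70421704, minus strand: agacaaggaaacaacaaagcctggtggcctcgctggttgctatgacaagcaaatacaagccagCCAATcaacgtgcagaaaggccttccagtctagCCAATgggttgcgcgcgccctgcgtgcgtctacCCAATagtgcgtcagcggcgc

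Of the 5 selecting genes, 4 had a CCAAT box and 4 a CHR within these 150 bases, and 1, *Cdk1*, had an E2F site. *Birc5* had none of the letters searched. A gene was counted when any of its listed promoters held the motif. Among all 27025 genes with a listed promoter, 27.7% held a CCAAT box, 11.2% a CHR and 1.19% an E2F site. Among 5002 matched genes at 20 CPM or more in the cycling macrophages these shares were 32.6%, 8.30% and 2.54%. CPM gives the UMIs of a gene as its share of all UMIs, on the usual counts-per-million scale. Several promoters were listed for 15.4% and 20.4% of these 2 gene sets, and for none of the 5 selecting genes. A CCAAT box stood in 11 of 13 matched genes of G2 and mitotic cyclins and kinases and in 18 of 26 matched genes of the spindle, tubulins and motors. A CHR was found in 10 of those 26 spindle genes, and in 1 of the 13 cyclin and kinase genes. Of 18 matched kinetochore genes, 10 had a CCAAT box and 3 a CHR. Of 12 matched genes that license replication origins, 9 had a CCAAT box and 5 an E2F site. A CCAAT box was found in 8 and an E2F site in 2 of 18 DNA synthesis genes, and of 9 deoxynucleotide supply genes 5 had a CCAAT box and none an E2F site. These matches describe the letters of the window and show no binding.

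The name was checked against markers of the cell cycle and of macrophages. *Stmn1*, a microtubule regulator of dividing cells that the rule did not use, had a UMI in 77.5% of Wt and 83.3% of Gata3KO cycling cells. With cells thinned to 5000 UMIs it was detected in 75.3% and 69.2% of cycling cells, in 10.7% and 8.06% of the reference macrophages described below, and in 6.67% of 30 Wt and 14.3% of 7 Gata3KO mature dendritic cell barcodes. The macrophage receptor gene *Csf1r* had a UMI in 85 of 89 Wt and 80 of 84 Gata3KO cells, and *Adgre1* (F4/80) in 64 cells of each library. After thinning, *Adgre1* was detected in 64.4% and 62.8% of cycling cells and in none of the mature dendritic cell barcodes. Mature dendritic cell markers summed to 3.36 and 1.14 CPM and fibroblast markers to 16.8 and 10.8 CPM, but the rule itself limited *Ccr7*, *Fscn1* and the collagens, so these sums describe the choice. T and NK cell markers summed to 1.34 CPM in Wt and 0 in Gata3KO, whose table does not list Cd3e or Nkg7. Neutrophil markers summed to 54.4 and 55.8 CPM, against 96.2 and 97.5 in the reference macrophages, with *S100a9* at 0. B cell markers summed to 148 and 47.8 CPM, against 151 and 66.7 CPM in the reference macrophages, with 3 or more UMIs in 19 Wt and 10 Gata3KO cells and 10 or more in 9 and 2; this sum rests on *Ighm*, and neither table lists Cd79a. The part of B cell transcripts in the results was not tested. Muscle transcripts summed to 198 and 169 CPM, against 483 and 78.1 CPM in the reference macrophages. Of the cycling cells, 29 Wt and 13 Gata3KO cells held 3 or more such UMIs, and 1 of each library held more of them than of macrophage markers. Conventional dendritic cell markers, of which the rule limited *Cd209a*, summed to 10.1 and 11.4 CPM, against 24.7 and 4.66 CPM in the reference macrophages. In Gata3KO, 2 cells held 3 or more such UMIs, and 1 held more of them than of macrophage markers.

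The cycling cells were not uniform on the macrophage side, since a single C1q UMI was enough to enter. In 18 of 89 Wt and 16 of 84 Gata3KO cells the C1q genes had fewer than 10 UMIs together. Barcodes of mature dendritic cells (10 or more UMIs of *Ccr7* and *Fscn1*), which should lack C1q, held a C1q UMI in 62.5% of 32 Wt and 75% of 8 Gata3KO barcodes, and 10 or more in none of either. A count of 0 still allows shares of up to 9.38% and 37.5% there, and these barcodes had medians of 11185 and 13524 UMIs. The C1q-poor cycling cells were shallower, with a median of 4233 UMIs in Wt and 7763 in Gata3KO, against 16556 and 21979 in the C1q-rich ones. Macrophage identity genes other than the C1q genes summed to 4790 CPM in Wt and 8186 in Gata3KO, against 32254 and 36778 CPM in the C1q-rich cells. Their MHC class II genes were higher: the antigen-presenting chain *H2-Ab1* stood at 7206 CPM in C1q-poor and 1579 in C1q-rich Wt cells, and at 3238 and 340 CPM in Gata3KO. *Flt3*, a growth factor receptor gene of dendritic cell precursors, was at 31.8 CPM in the C1q-poor and 0 in the C1q-rich Wt cells, and at 21.4 and 1.27 CPM in Gata3KO. These *Flt3* levels rest on few UMIs, since the C1q-poor cells held 188729 UMIs of all genes in Wt and 187139 in Gata3KO. The markers of the C1q-poor cells thus go partly against the name, so these cells are called here by the rule alone, and results that move without them are given both ways.

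**Figure D1:**
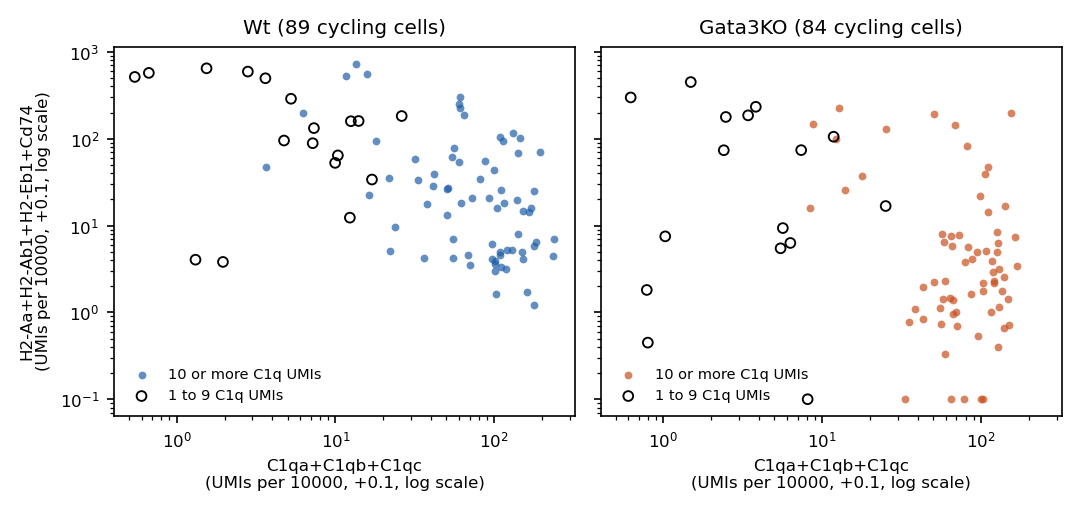
Each point is 1 cycling cell, with its summed C1q UMIs on the x axis and its summed UMIs of 4 MHC class II genes (*H2-Aa*, *H2-Ab1*, *H2-Eb1* and *Cd74*) on the y axis, both per 10000 UMIs on log scales with 0.1 added, for Wt (left) and Gata3KO (right). Cells with fewer than 10 C1q UMIs have a median MHC class II level of 146 per 10000 in Wt and 45.1 in Gata3KO, against 18.2 and 2.61 in the C1q-rich cells.

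MHC class II also split the C1q-rich cells. At least 50 UMIs per 10000 of the 4 class II genes were found in 20 of 71 C1q-rich Wt cells and 8 of 68 C1q-rich Gata3KO cells, and in 14 of 18 and 8 of 16 C1q-poor cells. The plot of C1q against MHC class II shows the C1q-rich cells spread from 1.10 to 729 class II UMIs per 10000 in Wt and from 0 to 228 in Gata3KO.

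Depth moved with the choice of cells. Cycling cells had a median of 15933 UMIs in Wt and 19167 in Gata3KO, against 7149 and 13238 in the reference macrophages used for comparison (same limits, at most 1 UMI of the 5 selecting genes, and at least the 10th percentile of the UMIs of their library's cycling cells; 623 in Wt and 484 in Gata3KO). The reference macrophages also held C1q-poor cells. Of them, 470 of 623 in Wt (75.4%) and 413 of 484 in Gata3KO (85.3%) had 10 or more C1q UMIs. Among the cycling cells these shares were 79.8% and 81.0%. The 89 and 84 cycling cells together held 1489136 and 1757224 UMIs. Median mitochondrial shares were 8.18% and 7.78%. A caller for doublets (2 cells in 1 droplet) marked 0 of 2040 Wt and 2 of 1499 Gata3KO barcodes, 1 of them a cycling cell, which is too few for the caller to have worked, so doublets were left in. *Gata3* had 8 UMIs in each whole library and none in the cycling cells of either, where 3 UMIs would correspond to 2.01 CPM in Wt and 1.71 in Gata3KO; a 3′ tag may lie outside the deleted part, so this checks neither label. *Cx3cr1* was at 370 CPM in Wt and 392 in Gata3KO cycling cells.

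Cycling macrophages were counted as a share of the eligible macrophages, those that met every condition except the cycle genes, and the intervals of the 2 libraries overlapped. The share was 5.40% (89 of 1648; exact binomial interval 4.36 to 6.60%) in Wt and 6.45% (84 of 1302; 5.18 to 7.93%) in Gata3KO, a difference of 1.05 percentage points with an interval from -0.70 to 2.86. Its direction turned when barcodes were thinned to 5000 UMIs, which left out the shallower ones. The share was then 7.92% (48 of 606; 5.90 to 10.4%) in Wt and 5.90% (37 of 627; 4.19 to 8.04%) in Gata3KO. With 2000 UMIs and a limit of 2 selecting UMIs it was 5.06% (3.87 to 6.48%) and 4.65% (3.46 to 6.10%). The intervals of the libraries overlapped in both. Among barcodes with 20000 or more UMIs, 33 of 77 in Wt (42.9%; 31.6 to 54.6%) and 40 of 194 in Gata3KO (20.6%; 15.2 to 27.0%) were cycling. Between 10000 and 20000 UMIs the shares were 13.1% and 11.3%. The part that depth and unequal cell size played in this gap was not tested.

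Next to the threshold of 4 UMIs, the summed other cell-cycle genes were at like levels on both sides. Eligible barcodes just outside it, with 3 UMIs of the selecting genes, numbered 21 in Wt and 22 in Gata3KO, and those just inside, with 4, numbered 11 and 13. The other cell-cycle genes of the lists used here had a median of 92.3 UMIs per 10000 just outside and 86.8 just inside in Wt, and 76.1 and 75.04 in Gata3KO. Barcodes with none of the selecting UMIs had 65.7 and 68.5 per 10000, and those with 20 or more had 389 and 310. Summed over barcodes, a list of S phase genes was at 1174 CPM just outside and 486 just inside in Wt, and at 610 and 577 CPM in Gata3KO. A list of G2 and M phase genes was at 1062 and 1793 CPM in Wt, and at 793 and 699 CPM in Gata3KO. Single genes moved more: *Stmn1* was at 146 CPM just outside and 79.7 just inside in Wt, and at 82.3 and 203 CPM in Gata3KO.

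**Figure D2:**
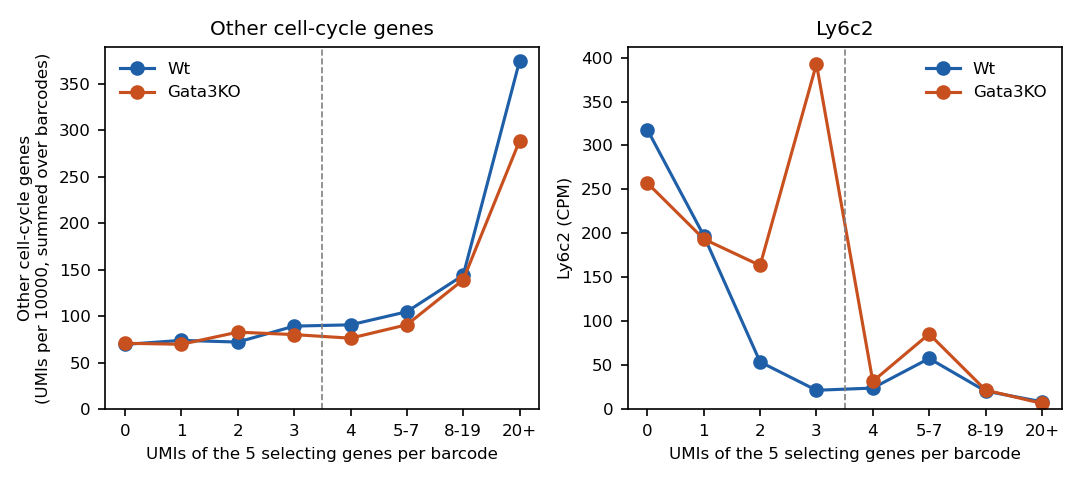
Eligible barcodes are grouped on the x axis by their UMIs of the 5 selecting genes, with the dashed line at the threshold of 4; the left panel gives other cell-cycle genes in UMIs per 10000 summed over barcodes, and the right panel *Ly6c2* in CPM, for Wt and Gata3KO. Other cell-cycle genes are gradually higher past the threshold, and *Ly6c2* goes from 318 CPM in Wt and 257 in Gata3KO barcodes with no selecting UMI to 8.36 and 6.50 CPM in those with 20 or more, with Gata3KO at 393 CPM just outside the threshold.

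The selecting genes themselves had these levels. *Mki67*, which coats mitotic chromosomes and is the common proliferation marker, was at 498 CPM in Wt and 501 in Gata3KO cycling cells. *Top2a*, which untangles DNA before chromosomes separate, was at 318 and 223 CPM, and *Birc5*, a chromosomal passenger protein also known as survivin, at 371 and 267 CPM. *Cdk1*, the kinase that starts mitosis, was at 107 and 89.9 CPM, and *Ube2c*, a ubiquitin-conjugating enzyme of the anaphase-promoting complex, at 226 and 163 CPM. In the reference cells none of the 5 exceeded 6.84 CPM, as the rule requires. The log2 ratio of Gata3KO over Wt was 0.01 for *Mki67*, -0.25 for *Cdk1*, -0.51 for *Top2a* (-0.71 to -0.31) and -0.47 for both *Birc5* and *Ube2c*, so all 5 lay within 2-fold.

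Against the reference macrophages, the cycling cells had higher mitotic and replication genes, with the largest list medians in the cyclin and kinase, kinetochore and spindle lists. Apart from the selecting genes, 2873 genes had at least 50 CPM in 1 cell group and 50 UMIs in each library. Of these, 97 (3.38%) were at least 2-fold higher in both libraries and 3 (0.104%) at least 2-fold lower in both. By library, 147 (5.12%) were higher and 15 (0.522%) lower in Wt, and 110 (3.83%) and 14 (0.487%) in Gata3KO. These counts describe how the cells were chosen.

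*Hmmr*, a spindle assembly protein, stood at 100 CPM in Wt cycling cells against 0.54 in Wt reference cells, and at 103 against 0.96 CPM in Gata3KO. *Ccnb2*, a cyclin B, was at 168 against 2.88 CPM and at 145 against 0.96 CPM. *Pclaf*, which binds the replication clamp PCNA, reached 225 against 3.96 CPM in Wt and 174 against 1.65 CPM in Gata3KO. *Stmn1* was at 583 against 24.7 CPM and at 555 against 20.03 CPM. The smallest ratio of these 4 genes was that of *Stmn1*, with log2 values of 4.56 in Wt and 4.79 in Gata3KO. The kinetochore motor *Cenpe* (209 and 171 CPM), the passenger complex subunit *Cdca8* (166 and 118 CPM) and the condensin subunit *Smc2* (169 and 145 CPM) were likewise among the 12 genes with the largest difference at that level.

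By role, genes past 1.5-fold in both libraries (with 1 CPM added, at 20 CPM or more; 7.04% of 5727 genes higher and 1.26% lower) were counted for each list. All 12 measured G2 and mitotic cyclins and kinases were higher, with median log2 ratios of 4.46 in Wt and 4.40 in Gata3KO, and so were all 17 kinetochore and centromere genes (4.36 and 4.04). Of 29 spindle, tubulin and motor genes, 28 were higher (4.27 and 4.20); the tubulin gene *Tubb5* stood at 1089 against 231 CPM in Wt and 897 against 281 CPM in Gata3KO. All 7 deoxynucleotide supply genes were higher (2.86 and 2.76), among them *Rrm2*, a subunit of ribonucleotide reductase (59.1 against 3.06 and 52.9 against 1.37 CPM).

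Medians of the licensing and DNA synthesis lists were lower than these. Of 10 origin licensing genes 8 were higher, with medians of 1.69 and 1.34, and of 17 DNA synthesis genes 13 were higher, with medians of 1.34 and 1.09. *Mcm5*, a subunit of the MCM helicase, was at 60.4 against 13.5 CPM in Wt and 56.9 against 11.4 in Gata3KO, and *Pcna* at 121 against 45.7 and 112 against 53.8 CPM. G1 and S entry genes had 3 of 7 higher (0.57 and 0.85), namely the transcription factors *E2f1* and *E2f2* and their partner *Tfdp1*. Histone genes had 10 of 14 higher (1.97 and 1.54), led in level by *H2afz*, the replacement histone H2A.Z, at 1806 against 518 CPM in Wt and 1549 against 487 in Gata3KO. All 15 chromatin and DNA methylation factors were higher (1.91 and 1.69), including the chromatin protein *Hmgb2* at 909 against 115 and 596 against 93.4 CPM. The medians over all genes were 0.09 in both libraries.

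**Figure D3:**
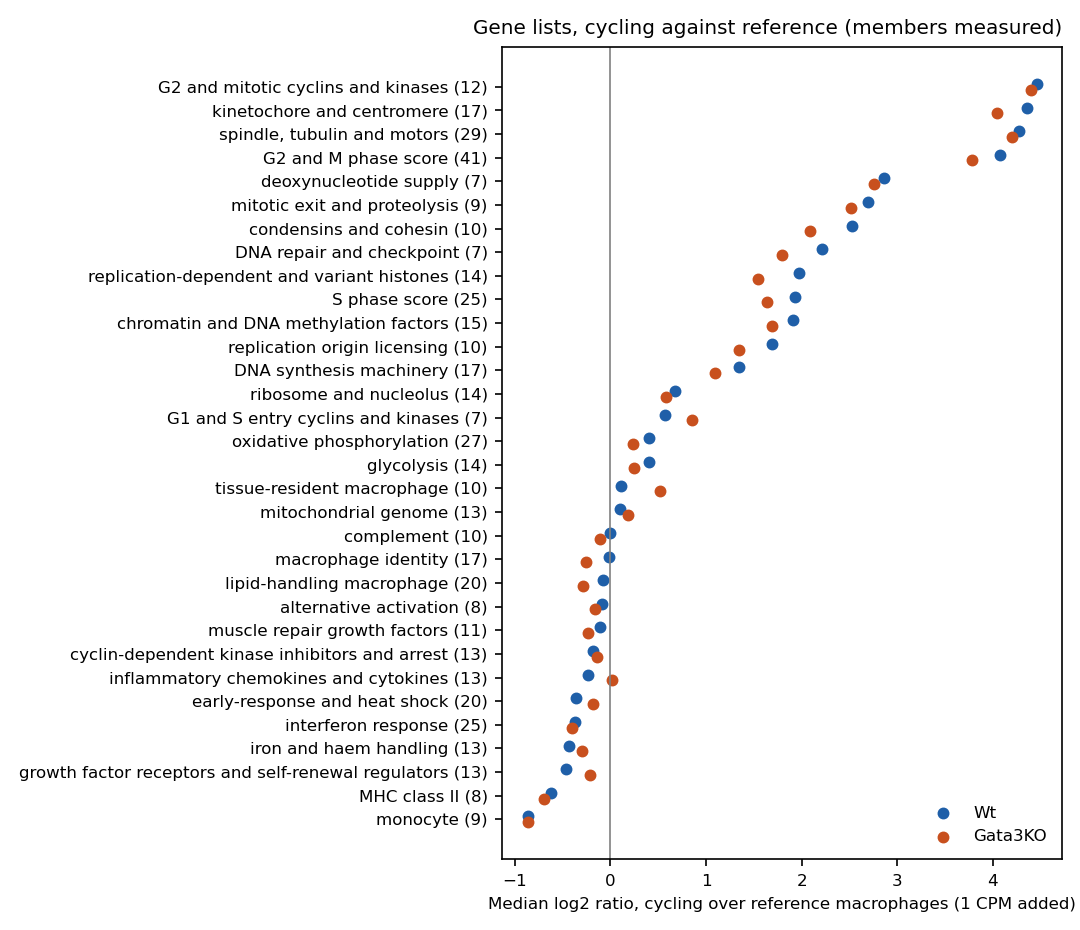
Each row is a gene list with its number of measured members, and the points are the median log2 ratios of cycling over reference macrophages (1 CPM added) in Wt and Gata3KO. The cyclin and kinase, kinetochore and spindle lists stand above 4, the condensin, mitotic exit, licensing, DNA synthesis and deoxynucleotide lists between 1 and 3, metabolic and macrophage lists near 0, and MHC class II (-0.62 and -0.70) and monocyte genes (-0.87 and -0.86) below it.

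Genes that brake the cycle gave a mixed picture. Of 13 cyclin-dependent kinase inhibitor and arrest genes, 2 (*Cdkn2c* and *Cdkn2d*) were higher in both libraries and none lower, with medians of -0.19 and -0.14. *Cdkn2c*, which encodes the CDK4 and CDK6 inhibitor p18, was at 57.8 against 5.04 CPM in Wt and 56.9 against 8.78 in Gata3KO. The p53 target *Cdkn1a* (p21) was lower in Wt cycling than reference cells, at 77.9 against 148 CPM, and at 188 against 215 CPM in Gata3KO.

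Of the 3 genes at least 2-fold lower in both libraries, the monocyte gene *Ly6c2* had the lowest ratio in each. It stood at 22.8 CPM in Wt cycling cells against 354 in Wt reference cells (log2 ratio -3.95; -4.49 to -3.47) and at 29.0 against 288 CPM in Gata3KO (-3.31; -3.74 to -2.91). With cells thinned to 5000 UMIs, 5.48% of Wt and 8.97% of Gata3KO cycling cells had a *Ly6c2* UMI, against 27.5% and 36.8% of reference cells and none of 30 and 7 mature dendritic cell barcodes. Next to the threshold the 2 libraries differed: barcodes with 3 selecting UMIs were at 21.4 CPM in Wt and 393 in Gata3KO, and those with 4 at 23.9 and 31.6 CPM. Reads of *Ly6c2* can be shared with its close copy *Ly6c1*. The other 2 genes lower in both libraries were *Thbs1*, the matrix protein thrombospondin-1 (14.8 against 52.0 CPM in Wt, 31.3 against 185 in Gata3KO), and *Clec4n*, the lectin receptor dectin-2 (17.5 against 52.4 and 44.4 against 89.9 CPM); *Clec4n* lies outside the naming rule and was named after its values were seen.

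Other monocyte and interferon genes were lower by smaller ratios. Of 9 measured monocyte genes, 5 were at least 1.5-fold lower in both libraries and 1 higher; that one was *S100a4*, a calcium-binding protein of migrating cells, at 1436 against 645 CPM in Wt and 1217 against 695 CPM in Gata3KO. *Plac8*, an interferon-inducible gene abundant in monocytes, had log2 ratios of -0.87 and -2.004. Of 25 interferon response genes, 7 were lower in both and 1, the chemokine gene *Cxcl10*, higher (medians -0.37 and -0.40), and of 8 MHC class II genes 3 (*H2-Ab1*, *H2-Eb1* and *Cd74*) were lower (-0.62 and -0.70). *Malat1*, a nuclear long non-coding RNA, was lower by 1.09 in Wt and by 0.94 in Gata3KO on the log2 scale.

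Few macrophage identity genes were past 1.5-fold from the reference cells in both libraries. Of 17 measured, 1 was lower and none higher, against 1.26% and 7.04% of all genes. The list holds the C1q genes, and both cell groups met the same C1q limit, so part of this likeness describes the choice. Summed over the list, cycling cells were lower, at 37408 against 47087 CPM in Wt and 41748 against 56492 CPM in Gata3KO. *Adgre1* was at 244 against 234 CPM in Wt and 299 against 340 in Gata3KO, and *Csf1r*, the receptor for the macrophage growth factor CSF1, at 535 against 640 and 536 against 577 CPM. The lower gene was *Apoe*, at 13453 against 22109 CPM and 15878 against 24496 CPM. Of 10 tissue-resident macrophage genes, *Folr2* and *Pf4* were higher in both; the chemokine *Pf4* was at 832 against 426 CPM and at 1999 against 1168 CPM. *Folr2*, the folate receptor beta of resident macrophages, was detected after thinning in 58.9% of Wt and 56.4% of Gata3KO cycling cells, against 34.0% and 36.8% of reference cells and 6.67% and 0% of mature dendritic cell barcodes. None of 27 oxidative phosphorylation genes was past 1.5-fold in both libraries. Of 14 glycolysis genes only *Pgk1* was, at 209 against 109 CPM in Wt and 269 against 158 CPM in Gata3KO. Of 14 ribosome and nucleolus genes 7 were higher (0.68 and 0.58), among them *Ran*, the GTPase of nuclear transport, at 445 against 127 CPM and 447 against 190 CPM.

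A further alternative, added after seeing the data, left out the C1q-poor cells and thinned the others to 5000 UMIs, without the shallower ones. In it 44 genes were at least 2-fold higher and 9 lower in both libraries. Leaving out the C1q-poor cells alone gave 10 lower genes. The filters on level and UMIs were applied anew in each setting. These counts thus rest on other sets of genes than the 97 and 3 of 2873 above, and they are not shares of those.

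Within the cycle, most cells leaned to G2 and M phase. UMIs of an S phase and a G2 and M phase gene list were counted in cells thinned to 5000 UMIs, which left 73 Wt and 78 Gata3KO cells and dropped 16 and 6 shallower ones. G2 and M UMIs outnumbered S UMIs in 59 Wt cells (80.8%) and 60 Gata3KO cells (76.9%). S UMIs outnumbered them in 9 Wt cells (12.3%; 5.80 to 22.1%) and 16 Gata3KO cells (20.5%; 12.2 to 31.2%), and the counts were equal in 5 and 2. The difference in the S-leaning share was 8.18 percentage points with an interval from -4.66 to 20.7, and it was -0.94 points when cells were thinned to 2000 UMIs. In 12 Wt and 19 Gata3KO cells the 2 counts lay within 2 UMIs of each other, so the classes are ranges on a scale. The 5 selecting genes are mostly genes of G2 and M phase, so this lean describes the choice of cells.

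**Figure D4:**
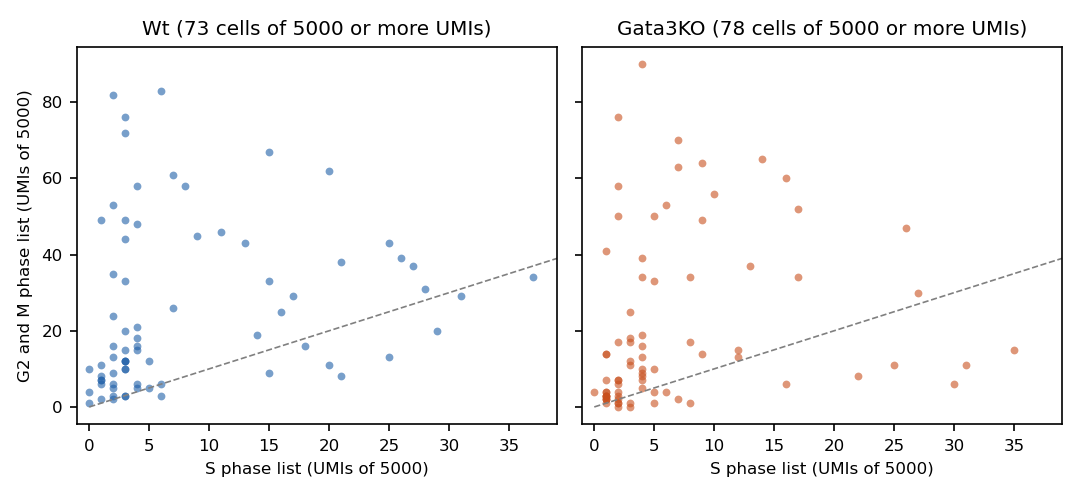
Each point is 1 cycling cell thinned to 5000 UMIs, with UMIs of the S phase list on the x axis, UMIs of the G2 and M phase list on the y axis and a dashed line where they are equal, for 73 Wt and 78 Gata3KO cells. Most points lie above the line, with medians of 4 S UMIs in both libraries and of 16 (Wt) and 11 (Gata3KO) G2 and M UMIs.

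A gene of the step before S phase was also higher in the S-leaning cells of both libraries. *Ccnd1*, a cyclin D of G1 that neither list holds, was at 784 CPM in S-leaning and 102 in G2 and M-leaning Wt cells, and at 410 and 108 CPM in Gata3KO. *Ccne2*, the cyclin E of S entry, is a member of the S phase list, so its level describes how the classes were made. It was at 102 against 1.73 CPM in Wt and 46.6 against 12.8 CPM in Gata3KO. A single Wt cell held 47.4% of the *Ccne2* UMIs of the Wt cycling cells. The linker histone gene *Hist1h1b* was at 157 CPM in S-leaning and 200 in G2 and M-leaning Wt cells, but at 3.11 (1 UMI) and 85.8 CPM in Gata3KO. *Hist1h2ae* was at 211 and 156 CPM in Wt and at 3.11 and 87.3 CPM in Gata3KO, so that the order of the 2 classes differed between these genes in Wt. With 9 and 16 S-leaning cells these levels rest on few cells, and the difference between the libraries was not tested.

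The next comparison sets the cycling cells of the Gata3KO library against those of the Wt library. The floxed *Gata3* alleles, Cre, strain and library differ together here, so their parts in a difference cannot be told apart. Interferon and MHC class II genes were lower, and resident-type, iron-handling and several inflammatory genes higher, in the Gata3KO library, while the cell-cycle genes were mostly within 1.5-fold. A gene was compared when 1 library reached 50 CPM and both together 50 UMIs; of the 3270 such genes, 173 (5.29%) differed by at least 2-fold: 59 (1.8%) were higher and 114 (3.49%) lower in Gata3KO. With C1q-rich cells alone the counts were 52 higher and 106 lower of 3226. For lists, a member was counted past 1.5-fold at 20 CPM or more with 1 CPM added, which held for 8.42% of 6233 genes upwards and 6.75% downwards; the median over all genes was 0.06 on the log2 scale. In the reference macrophages 7% of 5886 genes were counted upwards and 7.61% downwards, with a median of 0.08.

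Of 33 measured interferon response genes, 32 were lower in Gata3KO and none higher, with a median log2 ratio of -2.03; in the reference cells all 34 were lower, with a median of -2.11. *Ifit3*, an antiviral protein that binds foreign RNA, fell from 213 CPM in Wt (Poisson interval 190 to 238) to 21.6 in Gata3KO (15.3 to 29.7), a log2 ratio of -3.30 (-3.82 to -2.81). It had a UMI in 68 of 89 Wt and 16 of 84 Gata3KO cells. *Isg15*, a ubiquitin-like protein made under interferon, fell from 516 to 77.4 CPM (-2.74; -3.01 to -2.47), and *Irf7*, a transcription factor that amplifies the interferon response, from 710 to 133 CPM (-2.42). The share of thinned cells with an *Ifit3* UMI was 49.3% in Wt and 8.97% in Gata3KO cycling cells, 55.3% and 10.3% in reference cells, and 40% and 42.9% in the 30 and 7 mature dendritic cell barcodes. The difference thus had a like size in cycling and reference macrophages; whether the 2 differ was not tested. Reads of *Ifit3* can be shared with its close copy *Ifit3b*.

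Others of the 12 most strongly lower genes were also interferon-inducible. *Ifit2* fell from 128 to 9.11 CPM, *Ifit1* from 111 to 13.1 CPM, and the GTPase *Gbp2* from 104 to 13.1 CPM. *Slfn1*, a growth-regulating schlafen, fell from 125 to 19.3 CPM, the nucleic acid sensor *Zbp1* from 242 to 46.1 CPM, *Ms4a4c* from 595 to 115 CPM, and *Phf11d* from 132 to 25.04 CPM. Chemokines of the interferon response were carried by few cells: *Cxcl9*, which attracts T cells, was at 152 CPM in Wt and 1 UMI in Gata3KO, and 88.5% of the Wt UMIs sat in 1 cell. *Cxcl10* was at 699 and 145 CPM, with UMIs in 40 Wt and 23 Gata3KO cells. *Plac8* fell from 367 to 25.04 CPM (-3.87; -4.35 to -3.43), but in C1q-rich cells alone it was at 115 and 22.3 CPM (-2.36), since C1q-poor Wt cells held 2109 CPM.

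MHC class II genes, which present antigen to helper T cells, were lower for 7 of 8 members, with a median of -1.40 (-1.42 in reference cells). *H2-Ab1* fell from 2292 to 649 CPM (-1.82; -1.92 to -1.72), *H2-Eb1* from 2075 to 543 CPM (-1.93), and *Cd74*, the chain that guides class II molecules to endosomes, from 3350 to 1412 CPM (-1.25). *Ciita*, the master regulator of class II transcription, fell from 91.3 to 45.0 CPM. In C1q-rich cells *H2-Ab1* had a log2 ratio of -2.21. The costimulatory gene *Cd86* was at 46.3 and 56.3 CPM. *Fcgr1*, the high-affinity IgG receptor, fell from 506 to 213 CPM, and *Axl*, a receptor for apoptotic cells, from 113 to 36.4 CPM.

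Tissue-resident macrophage genes were higher for 8 of 10 measured members, with a median of 1.19, against 6 higher and 1 lower (0.83) in reference cells. *Mrc1*, the mannose receptor CD206, rose from 113 CPM in Wt (96.4 to 131) to 338 in Gata3KO (311 to 366), a log2 ratio of 1.58 (1.33 to 1.84), and was at 112 and 198 CPM in the reference cells (0.82). It was detected after thinning in 31.5% of Wt and 57.7% of Gata3KO cycling cells, in 26.2% and 42.8% of reference cells, and in none of the mature dendritic cell barcodes. *Pf4* rose from 832 to 1999 CPM (1.26), *Stab1*, a scavenger receptor, from 240 to 521 CPM (1.12), and *Cbr2*, a carbonyl reductase, from 32.9 to 91.1 CPM (1.47). *F13a1*, the clotting factor XIII subunit, rose from 26.2 to 122 CPM (2.22; 1.72 to 2.75). *Folr2* was at 291 and 364 CPM and *Selenop*, a selenium carrier, at 754 and 1263 CPM, both within 2-fold. With every cell weighted alike in place of summed UMIs, *Mrc1* had a log2 ratio of 1.07 and *F13a1* one of 1.48, and with cells thinned to 5000 UMIs *Mrc1* was at 0.88, under 2-fold.

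Iron and haem genes were higher for 9 of 14 members, with a median of 0.66 (0.70 in reference cells). *Hmox1*, the enzyme that breaks down haem, rose from 61.8 to 529 CPM (3.10; 2.79 to 3.42), with UMIs in 37 of 89 Wt and 58 of 84 Gata3KO cells. A single Gata3KO cell held 48.5% of its UMIs there, and without the top cell of each library the log2 ratio was 2.40. *Slc40a1*, the iron exporter ferroportin, was at 3 UMIs in Wt (2.01 CPM; 0.415 to 5.89) and 37.0 CPM in Gata3KO. The ferritin chains *Fth1* (7115 and 11333 CPM) and *Ftl1* (7494 and 11756 CPM) were higher by 0.67 and 0.65 on the log2 scale. *Gclm*, a subunit of the enzyme that makes glutathione precursors, rose from 24.8 to 74.5 CPM (1.59).

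*Chil3*, a chitinase-like secreted protein, had the largest increase among genes at 100 CPM and 100 UMIs. It rose from 6.04 CPM in Wt (2.76 to 11.5) to 118 in Gata3KO (102 to 135), a log2 ratio of 4.28 (3.33 to 5.43), with UMIs in 9 of 89 and 39 of 84 cells. The reference cells were at 36.7 and 303 CPM (3.04), so cycling cells were below the reference in both libraries. *Arg1*, arginase 1, another gene of alternative activation, had 2 UMIs in Wt and 60 in Gata3KO cycling cells, with 65% of the latter in 1 cell. As a list, alternative activation genes had 3 of 9 members higher and 1 lower (0.46). *Npl*, an enzyme of sialic acid breakdown, rose from 29.5 to 168 CPM (2.51; 2.05 to 2.998), whereas the reference cells were at 30.1 and 42.4 CPM (0.50). With cells thinned to 5000 UMIs the log2 ratio of *Npl* in cycling cells was 1.43, and with cells weighted alike it was 1.80.

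Inflammatory genes were higher for 8 of 15 members and lower for 2, with a median of 0.91, against 5 higher and 3 lower (0.32) in reference cells. *Il1b* rose from 45.0 to 145 CPM (1.69; 1.30 to 2.10) and *Tnf* from 65.8 to 182 CPM (1.46; 1.13 to 1.81). In C1q-rich cells alone their log2 ratios were 1.18 and 1.01, and with cells thinned to 5000 UMIs 2.35 and 2.01. The neutrophil chemokine *Cxcl2* rose from 334 to 832 CPM (1.32), with UMIs in 21 Wt and 39 Gata3KO cells. *Cxcl1* was at 8.73 and 106 CPM, with UMIs in 2 Wt cells, 1 of which held 92.3% of them, and in 17 Gata3KO cells. Early-response genes had 9 of 20 members higher and none lower (0.41), for example the transcription factor *Egr1* at 61.8 and 135 CPM and the heat shock protein *Hspa1a* at 138 and 361 CPM. A single Wt cell held 53.9% of the *Hspa1a* UMIs there, and without the top cell of each library its log2 ratio was 2.18; in C1q-rich cells it was 0.80, under 2-fold. The nuclear receptor *Nr4a1* rose from 36.3 to 102 CPM and *Dusp2*, a phosphatase that turns off MAP kinases, from 47.0 to 134 CPM. With cells thinned to 5000 UMIs their log2 ratios were 2.35 and 2.05, above those from all UMIs. Early-response genes are also induced while tissue is dissociated into single cells, and the part of this in the difference was not tested.

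**Figure D5:**
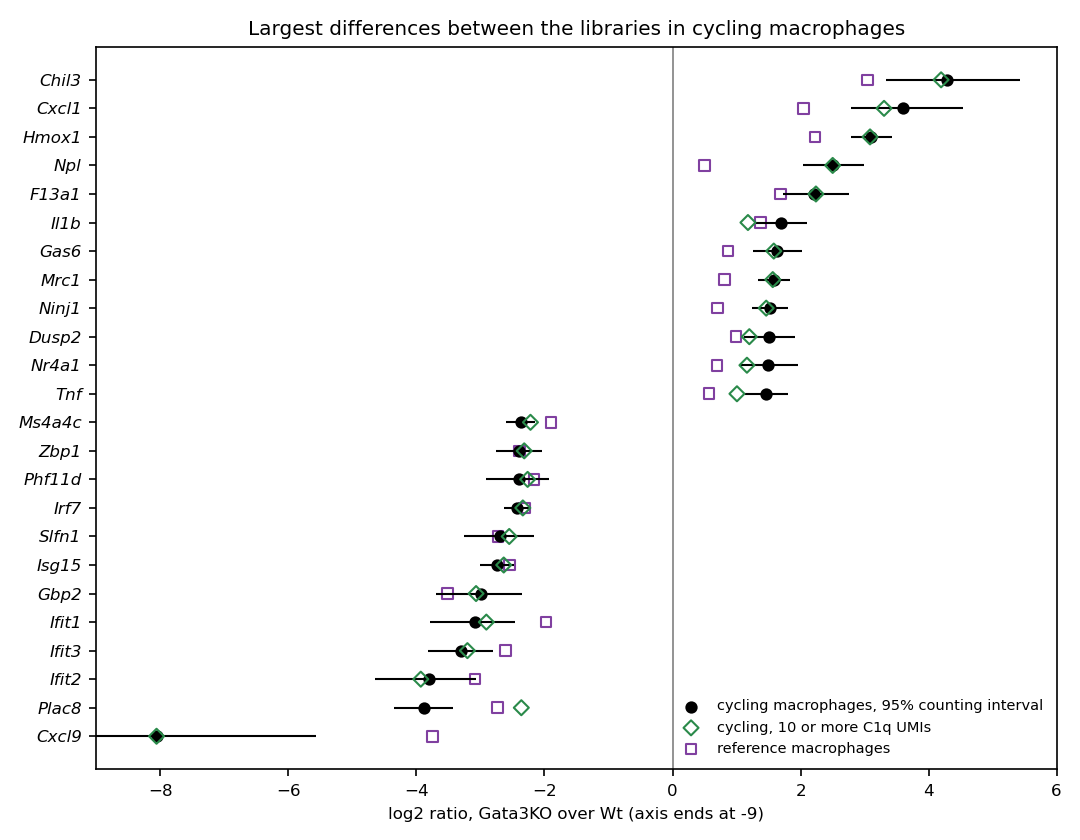
Points are log2 ratios of Gata3KO over Wt with 95% counting intervals for the 12 genes with the largest difference each way in cycling macrophages, beside the ratio of the same gene in the C1q-rich cycling cells (diamonds) and in the reference macrophages (squares). *Chil3* (4.28) leads upwards; *Plac8* (-3.87), *Ifit2* (-3.81) and *Ifit3* (-3.30) are among the lowest, and *Cxcl9* rests on 1 Gata3KO UMI, so its interval passes the end of the axis.

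Genes of lipid-handling macrophages were higher for 6 of 20 members and lower for 1, with a median of 0.23, against 11 and 1 (0.64) in reference cells. *Gpnmb*, a membrane glycoprotein of phagocytes, was at 791 and 1571 CPM, a ratio of 1.99 that lies just under 2-fold, and *Ctsd*, a lysosomal protease, at 2871 and 5458 CPM (0.93). *Spp1*, osteopontin, was at 1678 and 1735 CPM in the cycling cells, and at 1576 and 3875 CPM in the reference cells. *Lpl* (560 and 567 CPM) and *Cd36* (257 and 251 CPM), which take up lipids, were at like levels in the 2 cycling groups and at 344 and 642 CPM and at 117 and 268 CPM in the reference cells. *Mmp12*, the macrophage elastase, fell from 194 to 54.6 CPM, with UMIs in 14 Wt and 6 Gata3KO cells. Of its UMIs, 65.1% in Wt and 44.8% in Gata3KO sat in 1 cell, and without the top cell of each library the log2 ratio was -1.18. *Gas6*, the ligand of *Axl*, rose from 50.4 to 156 CPM (1.63); with every cell weighted alike its log2 ratio was 0.82, under 2-fold.

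Among the cell-cycle genes, histones stood lowest. Of 15 measured histone genes, 8 were at least 1.5-fold lower in Gata3KO cycling cells and none higher, with a median of -0.79. Only 7 histone genes were measured in the reference cells, none of them past 1.5-fold (-0.08), so these medians cover different sets of genes. *Hist1h1b* fell from 177 CPM in Wt (157 to 200) to 66.6 in Gata3KO (55.1 to 79.8), a log2 ratio of -1.41, with UMIs in 22 and 25 cells, and a single Gata3KO cell held 28.2% of its UMIs. *Hist1h3c* fell from 73.9 to 23.9 CPM (-1.63), *Hist1h2ae* from 151 to 70.0 CPM (-1.11) and *H2afx*, the histone variant marked at DNA breaks, from 126 to 59.2 CPM (-1.09). *H2afz*, which is not tied to replication, was at 1806 and 1549 CPM (-0.22). The median was -0.51 in C1q-rich cells, -0.53 with cells thinned to 5000 UMIs and -0.36 with cells weighted alike. Transcripts of replication-dependent histones mostly lack a poly(A) tail and have near-identical copies, so 3′ counting catches few of them, and the part of this in the difference was not tested.

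The other cycle lists were closer to 0. Past 1.5-fold, against 8.42% of all genes upwards and 6.75% downwards, were 0 higher and 5 lower of 15 G2 and mitotic cyclins and kinases (-0.23), 0 and 4 of 21 kinetochore genes (-0.33), 0 and 5 of 30 spindle genes (-0.28), 0 and 4 of 11 condensin and cohesin genes (-0.42), 0 and 1 of 12 licensing genes (-0.15) and 1 and 2 of 19 DNA synthesis genes (-0.11). Below 0 were 27 of the 30 spindle and 18 of the 21 kinetochore genes. *Cenpf*, a kinetochore protein of G2, was at 273 and 148 CPM (-0.89; -1.12 to -0.66), *Ncapd3*, a condensin II subunit, fell from 65.8 to 23.3 CPM (-1.50), and *Esco2*, a cohesin acetyltransferase of S phase, was at 46.3 and 21.6 CPM (-1.10). The summed level of the 5 selecting genes had a median of 12.4 UMIs per 10000 in Wt and 8.13 in Gata3KO cells; since the threshold is in raw UMIs and Gata3KO cells were deeper, its part in these differences was not tested. Upwards, *Pttg1*, securin, which holds sister chromatids together until anaphase, rose from 43.0 to 106 CPM (1.31; 0.89 to 1.74), while the reference cells were at 50.6 and 24.8 CPM. *Cdkn1a* rose from 77.9 to 188 CPM (1.27; 0.96 to 1.59), and was at 148 and 215 CPM in the reference cells (0.54). It was the 1 member higher of 14 inhibitor and arrest genes (0.20).

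Macrophage identity, oxidative phosphorylation and ribosome genes had few or no members past 1.5-fold. Of 17 macrophage identity genes, *Mertk* was higher (35.6 and 64.9 CPM) and *Fcgr1* lower, with a median of 0.00. None of 27 oxidative phosphorylation genes, none of 13 mitochondrial genome genes and none of 14 ribosome and nucleolus genes was past 1.5-fold, with medians of 0.04, 0.06 and 0.17. Of 15 glycolysis genes 3 were higher and 1 lower (0.36), with *Gapdh* at 1327 and 1714 CPM. The folate enzyme of mitochondria *Mthfd2*, which supplies units for purine synthesis, fell from 59.1 to 21.6 CPM (-1.45), and by the same ratio, from 22.9 to 8.37 CPM, in the reference cells. Muscle repair growth factors had 4 of 11 members higher and 1 lower (0.27), with *Igf1* at 112 and 177 CPM and *Gdf3*, a TGF-beta family factor, rising from 19.5 to 66.6 CPM with UMIs in 3 Wt and 12 Gata3KO cells. A single cell held 65.5% of the *Gdf3* UMIs in Wt and 34.2% in Gata3KO, and without these cells the log2 ratio was 2.70.

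A few genes had no UMI in the cycling cells of 1 library. *Spon1*, *Jaml* and *Apod* were detected in Wt with no UMI in Gata3KO, and against a floor of 3 UMIs in that library they were at least 7.87-fold, 11.4-fold and 9.05-fold lower. They lie outside the naming rule and were named after their values were seen.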

How the data were processed

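Each library held barcodes of 1 sort of injured muscle, and the deposited values are raw UMI counts per gene and barcode, written from Seurat by the authors. Build mm10 and the tools R 3.6.1, Seurat 3.0.2 and Cell Ranger 3.0.1 stand in the submitters' processing notes; any filter on cells was not given in the sources read. The libraries held 15392330 (Wt) and 19422237 (Gata3KO) UMIs, with 13289 genes in both tables. Counts were summed over the cells of a group and library and divided by the total (CPM). With 1 library per group no test was run: ratios carry exact conditional binomial intervals, sums exact Poisson and shares Clopper-Pearson intervals, all 95% and for counting error only. Genes with 50 CPM and 50 UMIs were compared, and 2-fold was the rule for a difference. Thinning drew 2000 or 5000 UMIs per cell. Named genes were the rule's genes and markers, of each list up to 3 highest, 3 lowest and 4 most abundant members, the 12 largest differences each way among genes at 100 CPM and 100 UMIs, and a panel of macrophage states; predicted, immunoglobulin, haemoglobin, Y-linked, *Tsix* and *Xist* genes were passed over. The cells' rule, the lists and the comparisons were chosen with earlier results of these data known. Scripts used Python 3.11.15, numpy 2.4.6, pandas 2.3.3, scipy 1.17.1, scanpy 1.11.5 (Scrublet) and matplotlib 3.10.9, and the steps were tested on simulated data. Alternatives covered the limits of the rule, scaling, filters, depth and reference cells.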

Additional observations from a re-analysis of the deposited data

Results flagged for a closer look

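In 4 genes the log2 ratio of cycling over reference macrophages had opposite signs in the libraries, with counting intervals on opposite sides of 0; the difference itself was not tested. The values were -1.001 in Wt and 0.55 in Gata3KO for *Cxcl1*, 0.091 and -1.16 for *Spp1*, -0.52 and 0.25 for *Gas6*, and -0.65 and 0.16 for *Ninj1*. Of these, *Cxcl1* had UMIs in only 2 Wt cycling cells.

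Barcodes over the mitochondrial limit, which no comparison used, also held cells with a cycle signal. All other conditions of the rule were met by 38 of 1100 such barcodes in Wt (3.45%; 2.46 to 4.71%) and 32 of 1744 in Gata3KO (1.83%; 1.26 to 2.58%). Their median UMIs were 4333 and 4649, and mitochondrial genes took a median of 28.9% and 33.6%. *Stmn1* was at 219 CPM in them against 31.8 in the rest of the Wt barcodes over the limit, and at 198 against 17.9 CPM in Gata3KO; *Hmgb2* was at 777 against 135 and 796 against 116 CPM.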

How the results depend on the processing

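No paired analysis was possible because each strain had 1 library, and for the same reason no replicate could be left out. The counts of genes 2-fold higher and lower in Gata3KO cycling cells, 59 and 114 of 3270, moved with the filter on level. That filter also set how many genes were compared. They were 136 and 180 of 6211 genes at 20 CPM, and 17 and 41 of 747 genes at 200 CPM. With median-of-ratios scaling they were 53 and 122 of 3266. With totals without mitochondrial and ribosomal protein genes they were 72 and 129 of 3965. Genes 2-fold lower in cycling than reference cells of both libraries numbered 14 with no UMI floor for the reference. They numbered 5 with a reference free of selecting UMIs and 10 with 10 or more C1q UMIs. With the last and 5000 UMIs per cell, added after seeing the data, 44 were higher and 9 lower. The filters were applied anew in each of these settings, so each count rests on its own set of genes. The share of cycling cells in Gata3KO minus Wt was -0.813 percentage points with no mitochondrial limit and -2.02 points at 5000 UMIs. The licensing list turned to 0.024 with cells weighted alike and the skeletal muscle list to 0.86 after thinning. Ratios of named genes for Gata3KO over Wt stayed within their counting interval in 231 cases and left it in 31, with no change of sign. The cases that stayed include those of the 20 and 200 CPM filters, which cannot change a ratio. They also include the setting without called doublets, which dropped 1 cycling cell, so the tally overstates how stable the ratios were. For cycling over reference a looser limit was used, not the counting interval. There 190 ratios shifted by at most 2-fold and 2 by more, with none counted as reversed. List medians stayed in 336 cases, moved in 25 and reversed in the 2 given. A list was counted as reversed only where the interval of its main median left out 0. Changes of sign in other lists are not counted as reversed. The cause of these moves was not tested.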
